A study of Homo sapiens with 6 samples.

Results

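Ephrins, semaphorins, SLITs and netrins are the 4 classic families of axon guidance ligands, and Eph receptors, plexins with neuropilins, ROBO proteins and UNC5 proteins are their main receptors. Their genes were examined in libraries titled MDA-MB-468, an established breast cancer line of the basal-like, triple-negative kind. Within these families the genes were taken by symbol, whatever their values (EPHA, EPHB, EFNA, EFNB, SEMA3 to SEMA7, PLXN, NRP, ROBO, SLIT, NTN1, NTN4, NTN5 and UNC5), which gave 67 of the 56505 rows of the count table. RNA was sequenced in 3 libraries of cells carrying a control short hairpin RNA (pLK0-shControl, here shControl) and in 3 libraries of cells carrying a single hairpin against KRT5 (titled shCK5-22, here shCK5). KRT5 encodes cytokeratin 5, a keratin of basal epithelial cells. Both groups were kept in DMEM with fetal bovine serum and received no other agent, and no dose or time separates them. Separate cultures are not stated for the 3 libraries of a group, and the p-values rest on the scatter of these 6 libraries alone, possibly a technical one. With a single hairpin, effects of losing KRT5 and other effects of that hairpin cannot be told apart.

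Guidance ligands act at short or long range on the cell surface. Ephrins are held on the membrane, A-type by a lipid anchor and B-type by a transmembrane segment, and bind Eph receptor tyrosine kinases on neighbouring cells, with signals passing into both cells. Class 3 semaphorins are secreted and act through neuropilins paired with plexins, whereas the other classes are mostly bound to the membrane and bind plexins directly; SLITs bind ROBO receptors, and netrins bind DCC, neogenin and UNC5 receptors. In breast epithelium these systems are known for their part in cell sorting, duct shape and the layering of luminal and basal cells, and EPHA2 is known as an often abundant receptor in basal-like breast cancer.

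Total counts lay between 68810882 and 83594772 per library. KRT5 had 2056, 2059.7 and 2017 CPM (read counts relative to the library total, scaled with TMM factors) in shControl. In shCK5 it had 17.2, 15.5 and 16.5 CPM, the direction that the labels give. Whether the hairpin gave this difference was not tested. The cell line label was checked against markers. All 10 basal-like breast markers in the list used, which includes KRT5 itself, were lower in shCK5. Their summed level was 6400.1 to 6578 CPM in shControl and 867 to 898 CPM in shCK5, where EGFR alone had a mean of 735 CPM. VTCN1 went from 88.6 to 1.07 CPM and CDH3 from 98.05 to 3.82 CPM. Of 10 general epithelial markers, 9 were lower (summed 5403 to 5497 CPM against 1514 to 1546 CPM). CLDN4 was higher (83.3 and 148 CPM). Among those lower, CDH1 went from 120 to 3.89 CPM and KRT8 from 2169 to 765 CPM. Of all genes tested, 41.7% were lower. None of the 20 markers was at 0 in either group, although TP63 and CRYAB were below 1 CPM in shCK5. For RB1 and SMAD4, tumour suppressors whose loss is known in MDA-MB-468, the mean level was 2.00 and 0.235 CPM in shControl but 101 and 16.9 CPM in shCK5. Whether the groups hold the same cells was not tested. Differences that follow the hairpin and differences between cell stocks therefore cannot be told apart, for KRT5 or in any result below.

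Guidance genes differed between the groups in nearly every member that could be tested, and in both directions. Of the 67 members, 61 had enough reads for the test, and 29 of these were higher and 29 lower in shCK5 (edgeR quasi-likelihood test, Benjamini-Hochberg adjusted p below 0.05 over all genes tested). That is 95.1% of the tested members, against 82.7% of all 19567 genes tested, of which 40.9% were higher and 41.7% lower. Above 2-fold there were 17 higher and 24 lower members, together 67.2%, where the share over all genes was 44.0% (19.6% higher and 24.4% lower). Above 8-fold there were 19 members, or 31.1%, against 14.4% of all genes. The 3 values of a group lay wholly apart from those of the other group in 58 tested members (95.1%) and in 84.2% of all genes tested. The median log2 fold change, shCK5 minus shControl, was 0.22 over the tested members and -0.02 over all genes, and the median size of the change regardless of sign was 2.01 and 0.853. A gene passes the filter on low counts through the group where it is high, so these shares describe the genes that were tested and not the families as such. No class was tested as a set. In bulk RNA, fewer cells with a transcript and less transcript per cell cannot be told apart. EPHA3, SEMA3G and SLIT1 did not pass the test. EPHA7, SEMA5B and SEMA6D had too few counts to be tested, and EFNA4, SEMA4G and NTN5 had no count in any library. In the GENCODE annotation EFNA4 shares 15.0% of its exon bases with other genes, SEMA4G 27.4% and NTN5 2.3%. EFNA3 shares 44.7% and had counts in every library. Whether overlap bears on the zeros was not tested, and the zeros do not show that EFNA4, SEMA4G and NTN5 are silent.

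**Figure D1:**
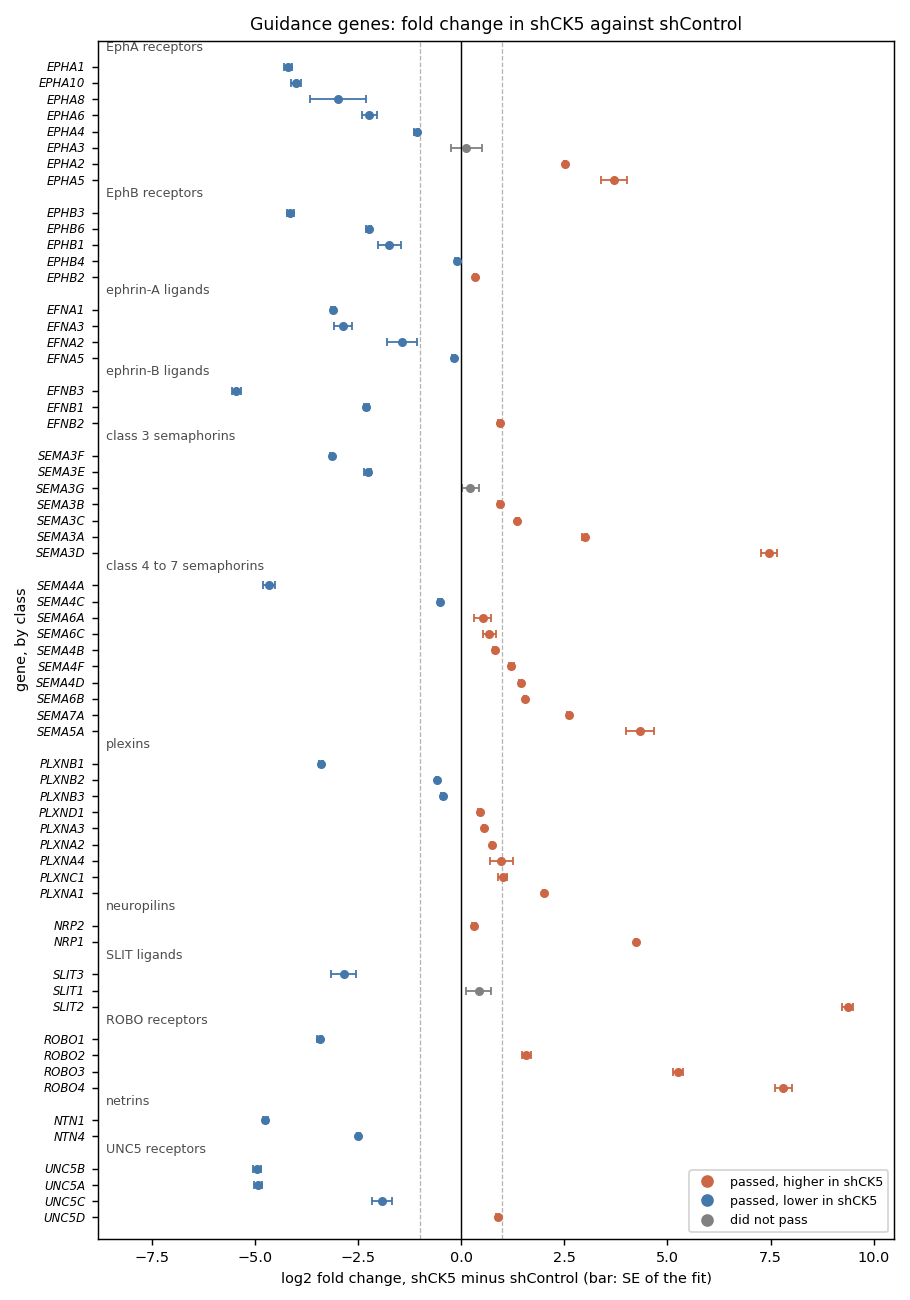
Each point is the log2 fold change of 1 tested gene (x axis, shCK5 minus shControl, with the standard error of the edgeR fit as a bar), ordered within its class on the y axis; dashed lines mark 2-fold. Ephrins, EphB receptors, netrins and UNC5 receptors lie mostly to the left and semaphorins, plexins, neuropilins and ROBO receptors mostly to the right, with SLIT2 at 9.37 and EFNB3 at -5.44 as the extremes.

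Eph receptor transcripts in shCK5 were mostly EPHA2, while most other Eph receptors were lower than in shControl. Of 14 Eph receptor genes, 13 were tested, 3 were higher and 9 lower, where 40.9% of all genes tested were higher and 41.7% lower. EPHA2 (ENSG00000142627.12, chromosome 1, 16124337 to 16156087, minus strand, GRCh38), a receptor tyrosine kinase for A-type ephrins, had 105, 103 and 104 CPM in shControl and 591, 591 and 598 CPM in shCK5. The mean of the shCK5 libraries was 5.71-fold higher with no overlap between the groups (log2 fold change 2.51, standard error of the fit, SE, 0.0267, edgeR adjusted p = 1.69e-29). Compared per kilobase of annotated exon, EPHA2 made up 30.3% ± 0.123 of the summed Eph receptor level in shControl and 79.6% ± 0.463 in shCK5 (mean ± SD, n = 3 libraries in each group, as in every ± value here). The length was that of all annotated exons of a gene merged, and the shares depend on it. EPHB2, at 101 CPM in shControl, counted for 9.73% there, with 12516 exon bases against 4159 for EPHA2. The summed level of all Eph receptors went from 82.6 ± 0.513 to 179 ± 0.673 CPM per kilobase, so EPHA2 alone was higher in shCK5 (143 CPM per kilobase) than all 14 receptors together in shControl.

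Other EphA receptors mostly moved the other way. EPHA1 had 21.6, 19.4 and 19.01 CPM in shControl and 1.16, 0.944 and 1.19 CPM in shCK5, a level 18.2-fold lower (log2 fold change -4.19, SE 0.0968, adjusted p = 1.26e-22). EPHA10, a receptor that lacks kinase activity, had 10.04, 10.1 and 9.74 CPM and 0.592, 0.761 and 0.498 CPM, which is 16.2-fold lower (log2 -4.01, SE 0.127). Both were well above 1 CPM in every shControl library and close to or below 1 CPM in every shCK5 library. EPHA4, which binds ephrins of both types, fell from 39.9 ± 2.97 to 18.9 ± 1.37 CPM, and EPHA6 from 2.42 ± 0.0855 to 0.516 ± 0.0682 CPM. EPHA8 was below 0.3 CPM in every library and its log2 fold change of -2.99 (SE 0.681) rested on 6 counts in shCK5; it was -3.87 without shCK5 replicate 1. EPHA5 was the only other EphA gene that rose, from 0.09396, 0.0752 and 0.139 to 1.34, 1.21 and 1.49 CPM (log2 fold change 3.70, SE 0.321), and remained a minor transcript. EPHA3 stood at 0.274 ± 0.0514 CPM in shControl and 0.298 ± 0.03704 CPM in shCK5 and did not pass (adjusted p = 0.772).

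EphB receptors split into 2 that were abundant and close to level and 3 that were more than 2-fold lower. Of all genes tested, 24.4% passed and were more than 2-fold lower. EPHB4, the usual receptor of ephrin-B2, had 149, 149 and 148 CPM in shControl and 140.5, 137 and 135 CPM in shCK5 and thus differed by only -0.11 on the log2 scale (SE 0.0276, adjusted p = 0.000745). EPHB2 had 104, 97.8 and 100.5 and 129, 127 and 124 CPM, a log2 fold change of 0.33 (SE 0.0302). The libraries of the groups did not overlap for either gene, but the shifts were far below 2-fold, and that of EPHB4 was smaller than the -0.14 by which scaling on library size alone moved the median of all genes. EPHB3 (ENSG00000182580.2, chromosome 3, 184561784 to 184582409, plus strand, GRCh38), a receptor for B-type ephrins, had 40.7, 39.1 and 40.97 CPM in shControl and 2.44, 2.597 and 1.797 CPM in shCK5. It was 17.7-fold lower (log2 -4.14, SE 0.0774, adjusted p = 1.47e-24). EPHB6, which like EPHA10 lacks kinase activity, had 32.7, 32.2 and 34.4 CPM and 7.18, 6.98 and 6.83 CPM (4.73-fold lower). EPHB1 was near 1 CPM in shControl (1.01, 1.304 and 1.07) and lower in shCK5 (0.466, 0.315 and 0.221). The summed EphB level per kilobase went from 46.4 ± 0.491 to 33.4 ± 0.703 CPM, while that of EphA receptors went from 36.2 ± 0.186 to 146 ± 1.02 CPM.

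The stretches upstream of the RefSeq start of EPHA2 and EPHB3, an EphA and an EphB receptor that changed in opposite directions and have a single listed start each, are shown to set the promoters side by side. Each run holds the 250 bases before the start, 5′ to 3′ on the gene's strand, with the EPHA2 window at chr1:16156070-16156319 (minus strand) and the EPHB3 window at chr3:184561535-184561784 (plus strand), GRCh38.p14. Capitals mark matches on either strand to GGGCGG, the GC box bound by SP factors, to GGAATG, a TEAD motif, to CACCTG, an E-box bound by ZEB and SNAI repressors, or to TGANTCA, the AP-1 motif.
EPHA2: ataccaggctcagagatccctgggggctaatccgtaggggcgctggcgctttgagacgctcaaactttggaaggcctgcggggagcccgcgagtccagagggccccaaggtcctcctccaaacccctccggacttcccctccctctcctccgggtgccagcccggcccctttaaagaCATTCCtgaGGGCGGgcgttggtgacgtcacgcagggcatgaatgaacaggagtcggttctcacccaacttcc
EPHB3: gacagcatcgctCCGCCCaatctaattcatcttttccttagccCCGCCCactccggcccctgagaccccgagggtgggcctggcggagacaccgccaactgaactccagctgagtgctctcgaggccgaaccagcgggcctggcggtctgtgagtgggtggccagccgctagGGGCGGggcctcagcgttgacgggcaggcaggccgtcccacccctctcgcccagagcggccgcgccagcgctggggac
The EPHA2 window had 1 TEAD match and 1 GC box, and the EPHB3 window 3 GC boxes. A TEAD match was found in 11.9% and a GC box in 42.6% of all 35116 RefSeq promoter windows of this length, and neither window held an E-box or AP-1 match. Marked letters are matches of a pattern, not binding sites, and no marked motif overlapped another in these windows.

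**Figure D2:**
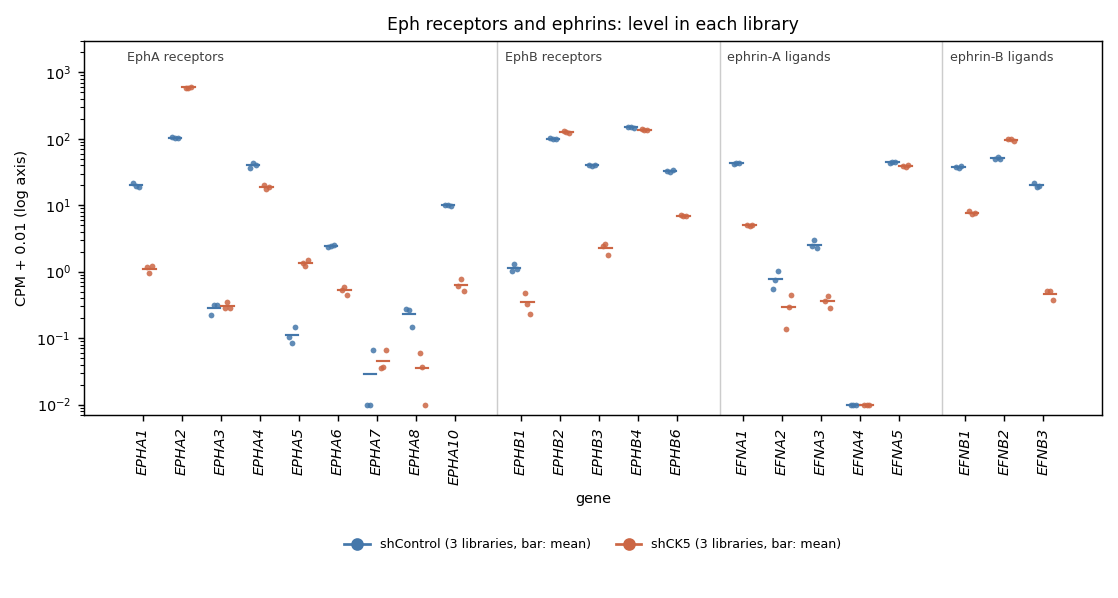
Each point is 1 library's CPM plus 0.01 (log y axis) for each Eph receptor and ephrin gene (x axis), with the mean of the 3 libraries as a bar, blue for shControl and orange for shCK5. EPHA2 stands at 591 to 598 CPM in the 3 shCK5 libraries, EFNB2 at 92.1 to 100.7 CPM, and most other members sit below their shControl points; EFNA4 had no count in any library.

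Ephrin ligands were lower in shCK5 with the exception of EFNB2. Of 8 ephrin genes, 7 were tested, 6 were lower and 1 was higher, where 41.7% of all genes tested were lower and 40.9% higher. EFNA1, the A-type ligand known to bind EPHA2, had 41.9, 43.4 and 43.9 CPM in shControl and 5.03, 4.905 and 5.03 CPM in shCK5, a level 8.63-fold lower (log2 fold change -3.11, SE 0.05403, adjusted p = 3.17e-25). EPHA2 and EFNA1 thus stood at 104 and 43.03 CPM in shControl and at 594 and 4.99 CPM in shCK5. EFNA5, another A-type ligand, differed little, at 43.6, 44.99 and 44.1 CPM and 38.6, 37.98 and 40.2 CPM (log2 -0.18, SE 0.0382, adjusted p = 0.000103). Per kilobase, EFNA5 went from 28.9% to 73.6% of the summed A-type level, which itself went from 26.9 ± 0.768 to 9.27 ± 0.312 CPM. EFNA3 fell from 2.403, 2.98 and 2.27 CPM to 0.353, 0.4197 and 0.277 CPM, and its count is uncertain because 44.7% of its exon bases are shared with AL691442.1, annotated on the same strand. EFNA2 was below 1.1 CPM in every library and lower in shCK5 (log2 -1.44, SE 0.368).

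Among B-type ligands, EFNB3 (ENSG00000108947.4, chromosome 17, 7705202 to 7711378, plus strand, GRCh38) had the largest decrease of any tested guidance gene. It had 21.9, 18.6 and 19.3 CPM in shControl and 0.504, 0.498 and 0.359 CPM in shCK5, 43.9-fold lower (log2 fold change -5.44, SE 0.117, adjusted p = 2.77e-23). EFNB1, whose gene lies on the X chromosome, had 38, 36.9 and 39.6 CPM and 8.11, 7.48 and 7.66 CPM (4.92-fold lower, log2 -2.30, SE 0.05396). EFNB2, the ligand of EPHB4 in vessel development, went the other way, from 49.7, 52.4 and 50.5 CPM to 100.4, 101 and 92.1 CPM (1.92-fold higher, log2 0.94, SE 0.0369). EFNB2 shares 26.2% of its exon bases with an antisense gene. The strand setting of the counts is not named, so the EFNB2 count may include reads of that gene. Per kilobase EFNB2 made up 36.4% of the B-type level in shControl and 88.7% in shCK5. Of the level of all ephrins it made up 62.3% ± 1.73 in shCK5 against 18.5% ± 0.489 in shControl.

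Semaphorins were mostly higher in shCK5. Of 20 genes, 17 were tested, 12 were higher and 4 were lower, where 40.9% of all genes tested were higher and 41.7% lower. The secreted class 3 members exchanged their leading gene. SEMA3F (ENSG00000001617.11, chromosome 3, 50155045 to 50189075, plus strand, GRCh38), a repellent that acts through NRP2, had 124, 125 and 128 CPM in shControl and 13.6, 15.3 and 13.9 CPM in shCK5, 8.82-fold lower (log2 fold change -3.14, SE 0.0412, adjusted p = 1.01e-27). SEMA3C, which also signals through neuropilins, had 57.05, 55.1 and 57.9 CPM and 153, 136 and 149 CPM, 2.57-fold higher (log2 1.36, SE 0.0377). Per kilobase, SEMA3F made up 65.6% ± 0.579 of the class 3 level in shControl and 8.39% ± 0.88 in shCK5, and SEMA3C 22.7% ± 0.423 and 65.8% ± 1.60. The summed class 3 level was 39.8 ± 0.391 CPM per kilobase in shControl and 35.3 ± 1.33 in shCK5.

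SEMA3A, the prototype repellent for NRP1, rose from 3.54, 3.61 and 3.87 CPM to 29.96, 29.4 and 28.6 CPM (7.97-fold; log2 3.00, SE 0.06404, adjusted p = 2.46e-23). SEMA3D was nearly absent in shControl, with 12 counts over its 3 libraries, and had 10.2, 9.23 and 9.37 CPM in shCK5 against 0.0805, 0.0251 and 0.0557 CPM (log2 7.46, SE 0.197). SEMA3B, often described as a tumour suppressor in epithelial cancers, was higher at 23.9 ± 0.114 against 12.4 ± 0.737 CPM, and SEMA3E, a ligand of PLXND1, was lower at 3.29 ± 0.228 against 15.7 ± 0.939 CPM. SEMA3G, at 1.32 ± 0.276 CPM in shCK5 against 1.13 ± 0.0925 CPM in shControl, did not pass (adjusted p = 0.315).

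**Figure D3:**
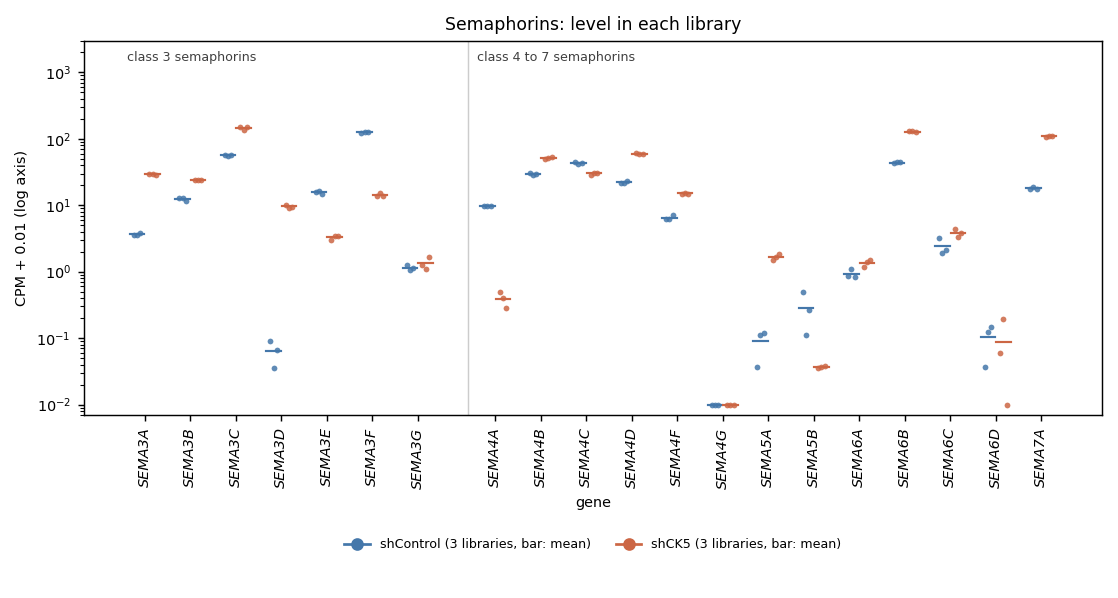
Each point is 1 library's CPM plus 0.01 (log y axis) for each semaphorin gene (x axis), with the mean of the 3 libraries as a bar, blue for shControl and orange for shCK5. SEMA3F, SEMA3E and SEMA4A lie lower in shCK5 and SEMA3A, SEMA3D and SEMA7A higher, each with all 3 points of a group apart from the other; SEMA4G had no count in any library.

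Membrane-bound semaphorins rose in 8 of the 10 members tested, where 40.9% of all genes tested were higher. SEMA7A (ENSG00000138623.10, chromosome 15, 74409289 to 74433958, minus strand, GRCh38), a lipid-anchored semaphorin that binds integrin beta 1 and PLXNC1, had 17.4, 18.7 and 17.8 CPM in shControl and 108, 110.3 and 110.0 CPM in shCK5, 6.09-fold higher (log2 fold change 2.61, SE 0.0372, adjusted p = 5.71e-27). SEMA6B, a ligand of A-type plexins, had 43.1, 44.8 and 44.1 CPM and 130.1, 129.7 and 126 CPM, 2.92-fold higher (log2 1.55, SE 0.0315). Together with SEMA3C these were the leading semaphorins of shCK5 per kilobase, with 25.8% for SEMA6B, 25.5% for SEMA7A and 20.5% for SEMA3C, where SEMA3F led in shControl with 37.1%. SEMA4D, the ligand of PLXNB1, rose from 22.1 ± 0.7104 to 60.04 ± 0.213 CPM, SEMA4F from 6.5 ± 0.479 to 15.1 ± 0.365 CPM and SEMA4B from 29.4 ± 0.847 to 51.5 ± 2.102 CPM. SEMA5A rose from 0.0268, 0.1003 and 0.111 to 1.47, 1.63 and 1.81 CPM and stayed low (log2 4.33, SE 0.337). SEMA6C rose by 0.68 on the log2 scale. SEMA6A was close to the threshold (0.924 ± 0.134 and 1.34 ± 0.1598 CPM, log2 0.53, adjusted p = 0.0216), and its adjusted p was above 0.05 without shControl replicate 1 or 3, without shCK5 replicate 2 or 3, with library size as the scale and with upper-quartile factors. The members that fell were SEMA4A, from 9.62, 9.78 and 9.81 CPM to 0.479, 0.393 and 0.277 CPM (25.4-fold; log2 -4.65, SE 0.1397), and SEMA4C, from 43.1 ± 1.33 to 30.2 ± 1.05 CPM. SEMA4A binds B-type and D-type plexins and is known from immune cells.

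Plexins, the signalling receptors of semaphorins, were all tested. Where 40.9% of all genes tested were higher and 41.7% lower, 6 of 9 plexins were higher and 3 lower, along the lines of their subfamilies. Each of the 4 A-type plexins rose and each of the 3 B-type plexins fell. PLXNA1 (ENSG00000114554.11, chromosome 3, 126988594 to 127037392, plus strand, GRCh38), a partner of neuropilins, had 167, 165 and 162 CPM in shControl and 653, 667 and 667 CPM in shCK5, 4.02-fold higher (log2 fold change 2.01, SE 0.0264, adjusted p = 1.08e-27). PLXNA2 rose from 74.5 ± 1.401 to 125 ± 2.299 CPM, PLXNA3 from 61.3 ± 1.58 to 90.2 ± 0.758 CPM, and PLXNA4, barely present, by 0.97 (SE 0.276) on the log2 scale. PLXNB1, the receptor of SEMA4D, had 80.9, 76.3 and 81.3 CPM and 7.33, 7.42 and 7.91 CPM, 10.52-fold lower (log2 -3.40, SE 0.0468, adjusted p = 2.67e-27). SEMA4D and PLXNB1 thus stood at 22.1 and 79.5 CPM in shControl and at 60.04 and 7.55 CPM in shCK5.

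PLXNB2 was the most abundant plexin of shControl, with 492, 479 and 475 CPM, and had 318, 323 and 322 CPM in shCK5 (log2 -0.59, SE 0.0254). Per kilobase it went from 59.5% ± 0.234 to 32.7% ± 0.0416 of the plexin level, and PLXNA1 from 13.5% ± 0.154 to 44.7% ± 0.19. PLXNB3 fell by 0.45 on the log2 scale; it shares 20.4% of its exon bases with SRPK3. PLXND1 rose from 67.8 ± 3.66 to 92.4 ± 3.15 CPM and PLXNC1, the receptor of SEMA7A, from 2.12, 2.41 and 2.51 to 4.48, 5.27 and 4.34 CPM.

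Neuropilins, the co-receptors that bind class 3 semaphorins and vascular endothelial growth factors, differed in size of change. NRP1 (ENSG00000099250.17, chromosome 10, 33177492 to 33336262, minus strand, GRCh38) had 17.2, 17.9 and 17.04 CPM in shControl and 331, 331 and 323 CPM in shCK5. The lowest shCK5 library was far above the highest shControl library, and the mean was 18.9-fold higher (log2 fold change 4.24, SE 0.0334, adjusted p = 6.78e-32), which was the smallest adjusted p of all members. NRP2 had 16.8, 16.4 and 16.7 CPM and 22.05, 19.8 and 20.1 CPM, a log2 fold change of 0.31 (SE 0.0547, adjusted p = 1.36e-05). Per kilobase the neuropilin pair went from 55.7% NRP1 and 44.3% NRP2 in shControl to 95.0% and 4.96% in shCK5. SEMA3A, NRP1 and PLXNA1, which encode a ligand and the co-receptor and receptor known to bind it, were all higher in shCK5, whereas for SEMA3F and NRP2 the ligand was lower and the co-receptor slightly higher.

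**Figure D4:**
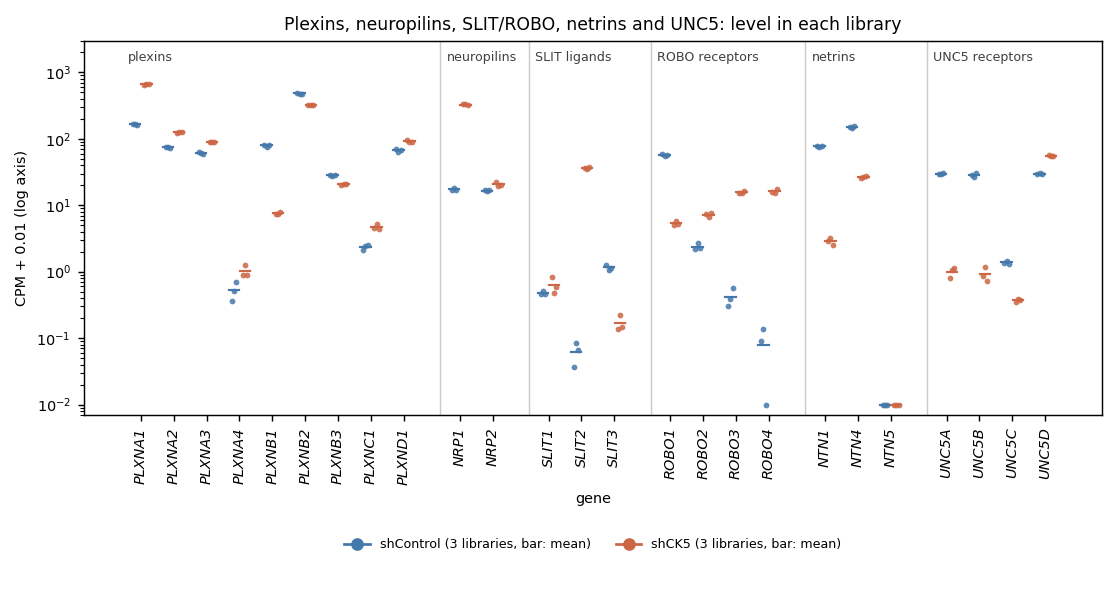
Each point is 1 library's CPM plus 0.01 (log y axis) for plexins, neuropilins, SLIT ligands, ROBO receptors, netrins and UNC5 receptors (x axis), with the mean of the 3 libraries as a bar, blue for shControl and orange for shCK5. NRP1, SLIT2, ROBO3 and ROBO4 lie higher in shCK5 and PLXNB1, ROBO1, NTN1, UNC5A and UNC5B lower, with no overlap of libraries; NTN5 had no count.

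SLIT2 had the largest increase of the guidance genes tested. SLIT2 (ENSG00000145147.19, chromosome 4, 20253260 to 20620561, plus strand, GRCh38), a secreted repellent, had 0.0268, 0.0752 and 0.0557 CPM in shControl, from 12 counts in all, and 35.98, 35.02 and 37.3 CPM in shCK5 (log2 fold change 9.37, SE 0.127, adjusted p = 1.99e-27). SLIT3 went the other way at low levels, with 1.25, 1.07 and 1.13 CPM in shControl and 0.126, 0.2098 and 0.138 CPM in shCK5 (log2 -2.85, SE 0.308). SLIT1 stood at 0.456, 0.501 and 0.446 CPM and 0.831, 0.472 and 0.581 CPM and did not pass (adjusted p = 0.189). The summed SLIT level per kilobase was 0.137 ± 0.00329 CPM in shControl and 3.80 ± 0.123 CPM in shCK5, of which SLIT2 made up 97.9%.
The 250 bases before the single RefSeq start of SLIT2, chr4:20251655-20251904 on the plus strand of GRCh38.p14, are shown because the gene went from a few reads to a clear level; capitals mark the same motifs as above, and this start lies upstream of the GENCODE start.
SLIT2: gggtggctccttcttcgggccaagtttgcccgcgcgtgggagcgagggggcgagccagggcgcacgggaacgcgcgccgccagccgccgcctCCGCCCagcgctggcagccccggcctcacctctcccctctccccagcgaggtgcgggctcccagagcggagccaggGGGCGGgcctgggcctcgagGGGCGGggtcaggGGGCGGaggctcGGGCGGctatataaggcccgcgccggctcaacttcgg
This window held 5 GC boxes and 30 CG dinucleotides with a GC content of 77.2%, and no TEAD, E-box or AP-1 match.

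ROBO receptors exchanged members while their summed level stayed close. ROBO1 had 59.7, 55.9 and 57.9 CPM in shControl and 5.102, 5.72 and 5.28 CPM in shCK5, 10.8-fold lower (log2 fold change -3.43, SE 0.0531, adjusted p = 3e-26). ROBO3, a divergent family member known for its role in midline crossing, had 0.295, 0.376 and 0.557 CPM and 15.4, 15.2 and 16.3 CPM (log2 5.26, SE 0.127, adjusted p = 3.16e-22). ROBO4, known as the ROBO of endothelial cells, had 0.0805, 0.125 and 0 CPM and 15.97, 15.1 and 17.7 CPM (log2 7.81, SE 0.198, adjusted p = 9.06e-22); its 16 shControl counts came from 2 of the 3 libraries, and the log2 fold change was 8.57 without shControl replicate 2. ROBO4 shares 16.9% of its exon bases with genes on the opposite strand. Every shCK5 library exceeded every shControl library for ROBO3 and ROBO4, and the reverse held for ROBO1. ROBO2 rose from 2.38 ± 0.267 to 7.16 ± 0.488 CPM. Per kilobase ROBO1 made up 96.2% ± 0.545 of the ROBO level in shControl and 9.06% ± 0.876 in shCK5, where ROBO4 took 42.2% and ROBO3 40.8%. The summed level was 5.53 ± 0.15 and 5.46 ± 0.283 CPM per kilobase.

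Markers of endothelial cells were read beside ROBO4. Their summed level was 6.82 to 8.75 CPM in shControl and 120.4 to 128.7 CPM in shCK5, and ESAM, a junction molecule, accounted for 118 CPM of the latter. Where 40.9% of all genes tested were higher and 41.7% lower, 4 of 8 tested endothelial markers were higher and 4 lower. Beside ESAM, those higher were PECAM1 (2.21 CPM in shControl and 4.23 CPM in shCK5), KDR (0.918 and 1.68 CPM) and CLDN5 (0.0625 and 0.335 CPM). Those lower were CDH5 (1.30 and 0.0348 CPM), VWF (0.654 and 0.176 CPM), TEK (0.652 and 0.184 CPM) and ERG (0.674 and 0.0579 CPM). Neuron and glia markers, read because guidance genes are abundant in neural tissue, summed to 15.0 to 17.2 CPM in shControl, mostly MAP2, and to 4.27 to 5.01 CPM in shCK5, with SNAP25 and SOX10 at 0 in both groups; of 5 tested, 4 were higher and 1, MAP2, was lower. Fibroblast markers summed to 19.2 to 20.2 and 12.3 to 14.4 CPM, with THY1 and POSTN at 0 in both groups; of 3 tested, PDGFRB was higher and COL1A1 and FAP were lower. Leukocyte markers summed to 16.3 to 19.0 and 2.89 to 3.82 CPM, with MS4A1, CD68 and NKG7 at 0 in both groups, and 3 of 4 tested were lower. Zeros in this table can also be rows in which no read was assigned, as for EFNA4, SEMA4G and NTN5, so the markers listed at 0 were not read as a lack of these cells. The part of such cells in the results was not tested beyond these levels.

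Both tested netrins taken by symbol and 3 of 4 UNC5 receptors were lower in shCK5, where 41.7% of all genes tested were lower and 40.9% higher. NTN1 (ENSG00000065320.8, chromosome 17, 9021542 to 9244000, plus strand, GRCh38), the secreted founding member, had 77.6, 76.6 and 78.4 CPM in shControl and 2.897, 3.2 and 2.54 CPM in shCK5, 26.9-fold lower (log2 fold change -4.75, SE 0.0569, adjusted p = 1.64e-28). NTN4, a netrin of basement membranes, had 152, 146 and 156 CPM and 26.1, 26.9 and 27.9 CPM (5.61-fold lower, log2 -2.49, SE 0.03599). The summed level of NTN1, NTN4 and NTN5 per kilobase went from 48.4 ± 1.36 to 6.92 ± 0.197 CPM. NTN3, a netrin outside the symbols taken, stood at 0.138 CPM in shControl and 0.246 CPM in shCK5. It did not pass (log2 0.83, edgeR adjusted p = 0.0934).
UNC5A and UNC5B, netrin receptors known to trigger cell death when no ligand is bound, fell together. UNC5A had 29.7, 29.9 and 30.2 CPM in shControl and 0.781, 1.05 and 1.13 CPM in shCK5, and UNC5B had 28.8, 26.5 and 30.2 CPM and 0.857, 1.18 and 0.719 CPM. These were decreases of 30.3-fold and 31.01-fold (log2 -4.93, SE 0.0878, and -4.95, SE 0.102). UNC5C was lower from a level near 1 CPM (1.34, 1.45 and 1.31 against 0.3401, 0.3803 and 0.359 CPM). UNC5D went against the other three, with 29.8, 30.5 and 29.3 CPM in shControl and 56.2, 54.6 and 54.9 CPM in shCK5 (log2 0.89, SE 0.0378, adjusted p = 4.99e-17). It made up 19.8% ± 0.738 of the UNC5 level per kilobase in shControl and 92.8% ± 1.05 in shCK5.

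**Figure D5:**
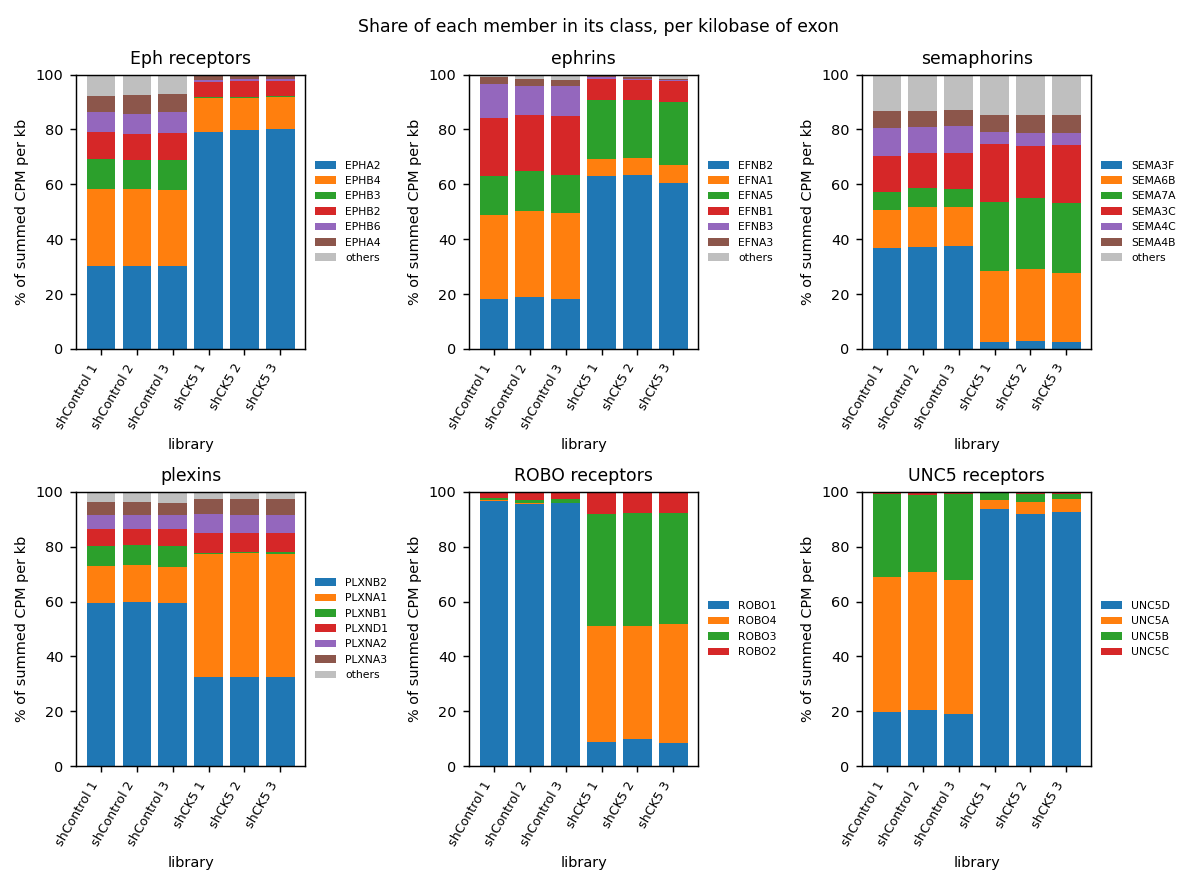
Each bar is 1 library (x axis) and each colour 1 gene's share of the summed level of its class (y axis, % of summed CPM per kilobase of annotated exon); genes beyond the 6 with the highest shares are grouped as others. In shCK5 a single gene leads the Eph receptors (EPHA2), ephrins (EFNB2) and UNC5 receptors (UNC5D), the lead passes from PLXNB2 to PLXNA1 and from ROBO1 to ROBO3 and ROBO4, and the 3 libraries of a group look alike.

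Neighbouring members moved together about as often as apart. Of 14 pairs of neighbouring members at most 2 Mb apart, 13 had a call for both genes; 7 pairs had the same direction and 6 opposite directions. ROBO3 and ROBO4 lie tail to tail on chromosome 11, 2.2 kb apart, and both rose. EFNA3 and EFNA1 lie 39.9 kb apart on chromosome 1 and both fell, as did EPHB6 and EPHA1, 519.2 kb apart on chromosome 7. SEMA3F and SEMA3B are 78.5 kb apart on chromosome 3 and differed in direction (-3.14 and 0.94), as did SEMA3E and SEMA3A, 306.7 kb apart on chromosome 7 (-2.26 and 3.00), and ROBO2 and ROBO1, 947.3 kb apart on chromosome 3 (1.58 and -3.43).

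No RefSeq promoter window (250 bases before a start) was available for EPHA10, EFNB3, NRP1, NTN1, SEMA3A, SEMA6A, SEMA6B, UNC5B or UNC5D. The other 58 members had 90 windows, some genes having several starts, whose windows can overlap. A GC box was found in 71.1% of these windows, against 42.6% of all windows, an E-box (CACCTG) in 16.7% against 17.5%, a TEAD motif in 7.78% against 11.9%, and an AP-1 motif in 1 window, of PLXNC1 (1.11% against 6.57%). The median window of a member had 17.5 CG dinucleotides against 11 over all windows. Among windows of members that rose, 31 of 38 held a GC box and 3 a TEAD motif, and among those of members that fell 23 of 36 and 4. These shares describe the letters of the windows and were not tested.

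Genes known to act with the guidance families also moved in both directions, as did all genes tested (40.9% higher and 41.7% lower). Of 26 tested Eph and ephrin signalling partners, 14 were higher and 7 lower, or 80.8% called against 82.7% of all genes tested, a share near that background (median log2 fold change 0.24, where all genes had -0.02). VAV3, an exchange factor recruited by Eph receptors, fell from 49.7 ± 0.525 to 1.86 ± 0.0274 CPM, the adaptor GRB7 from 16.4 ± 0.826 to 3.15 ± 0.25 CPM, and YES1, a SRC family kinase, from 318 ± 5.05 to 82.4 ± 2.50 CPM. CHN1, a Rac inhibitor downstream of EphA4, rose from 0.754 ± 0.229 to 23.6 ± 0.813 CPM, the kinase gene ABL2 from 60.7 ± 2.47 to 276.7 ± 6.32 CPM, and SDCBP, which encodes the ephrin-B adaptor syntenin, from 34.0 ± 1.12 to 109 ± 2.01 CPM.

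Of 30 tested semaphorin and plexin partners, 17 were higher and 11 lower, or 93.3% called against 82.7% of all genes tested (median 0.40). Of the 5 CRMP family genes, which relay SEMA3A signals to microtubules, 4 were higher and 1 was lower. CRMP1 rose from 0.034 ± 0.0381 CPM (8 counts) to 72.2 ± 1.66 CPM and DPYSL2 from 124 ± 0.907 to 311 ± 10.6 CPM, while DPYSL5 fell from 7.14 ± 0.438 to 0.107 ± 0.0488 CPM. DPYSL3 and DPYSL4 rose to means below 1 CPM, from 0.026 to 0.997 CPM and from 0.0176 to 0.407 CPM. MICAL2, an actin-oxidising enzyme, rose from 86.9 ± 1.90 to 445 ± 8.90 CPM, whereas the small GTPase gene RHOD fell from 65.0 ± 0.872 to 17.2 ± 0.293 CPM and FLT1, which encodes a VEGF receptor, from 1.51 ± 0.172 to 0.166 ± 0.0866 CPM.

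Of 18 tested SLIT and ROBO partners, 8 were higher and 8 lower, or 88.9% called against 82.7% of all genes tested (median -0.12), with 4 higher and 10 lower when library size alone set the scale. The ROBO-binding GTPase activators SRGAP1 and SRGAP2 rose by 0.54 and 0.27 on the log2 scale and the exchange factor gene SOS2 by 0.64, whereas SRGAP3 fell from 9.76 ± 0.579 to 0.314 ± 0.0775 CPM, ENAH, an actin regulator bound by ROBO1, from 282 ± 7.64 to 103 ± 2.58 CPM, and EVL, its relative, from 21.5 ± 1.503 to 11.7 ± 0.496 CPM.

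Of 19 tested relatives and partners of netrins, RGM and FLRT proteins, 9 were higher and 6 lower, or 78.9% called against 82.7% of all genes tested, again near the background (median 0.40). FLRT2, a surface protein that binds UNC5 receptors including UNC5D, rose from 0.106 ± 0.0258 to 77.8 ± 1.80 CPM (log2 fold change 9.50, SE 0.0893), NTNG2, which encodes a membrane-anchored netrin-G, from 0.118 ± 0.0416 to 21.2 ± 0.468 CPM, and MAGED1, a partner of UNC5A, from 11.3 ± 0.357 to 77.4 ± 3.41 CPM. NEO1, which encodes the netrin receptor neogenin, fell from 50.5 ± 1.02 to 11.4 ± 0.157 CPM, its other ligand RGMA from 9.86 ± 0.723 to 0.343 ± 0.016 CPM, and DAPK1, the kinase bound by UNC5B, from 64.5 ± 1.41 to 7.15 ± 0.491 CPM. DCC, the best-known netrin receptor, named here with its level in view, stood at 0.33 and 0.436 CPM and did not pass (log2 0.40, adjusted p = 0.305).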

How the data were processed

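The deposited file holds raw read counts per gene name for 3 shControl and 3 shCK5 libraries; per the file headers the authors counted them from sorted alignments. Reads were handled with cutadapt, STAR, SAMtools and Cufflinks on GRCh38, per the submitters' processing notes; the program that counted reads, its strand setting and its annotation are named neither there nor in the header. Above 20, between 63.1 and 65% of counts in a library were even; whether a fragment was counted as 1 or 2 was not tested.

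Counts were tested with edgeR 4.0.16 (limma 3.58.1, R 4.3.3; TMM factors, filterByExpr, quasi-likelihood test, Benjamini-Hochberg adjustment over 19567 genes, threshold 0.05). All adjusted p-values and log2 fold changes are from that fit. The standard error is the size of the log2 fold change divided by the square root of the F statistic. CPM used TMM-scaled library sizes. For comparison between genes, levels were divided by the merged length of all exons of a gene in GENCODE release 29, whichever transcript was expressed. Positions come from that release by gene symbol. Of 56505 rows, 27600 had no count. Named members are those with the highest mean level of their class in either group and up to 3 with the largest change and a group mean of at least 1 CPM; from each partner list, the 3 highest and 3 lowest that passed with such a mean. In simulated counts of 19191 genes, 71.8% of 103 planted changes of 0.5 on the log2 scale were recovered. Of 97 planted changes of 1, 95.9% were recovered, and there were 7 false calls. Only genes above a minimum count were changed there, whereas 82.7% of genes were called in these data. Recovery for genes with few counts, or with that many changes, was therefore not tested. DESeq2 1.42.0, other scalings and filters, a replicate block and leaving out each library were the alternatives. Members were taken by symbol, but the families and lists to describe were chosen with earlier results of these data known.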

Additional observations from a re-analysis of the deposited data

How the results depend on the processing

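Library size and upper-quartile scaling moved the median of the log2 fold changes over all genes by -0.14 and -0.10. With library size alone, 7167 genes were higher and 9118 lower, against 8012 and 8165; 28 members were higher and 29 lower; and the SLIT and ROBO partners that were higher went from 8 to 4. EPHA3, which did not pass, changed sign, to -0.015 with library size alone and to -0.023 without shControl replicate 1; leaving out 1 library gave values from -0.023 to 0.21. SEMA6A lost its call under both scalings and in 4 of the 6 fits without 1 library (edgeR adjusted p from 0.0504 to 0.0841). Over all settings, 28 to 29 members were higher and 27 to 30 lower. Genes called numbered 13372 with the 1 CPM filter and 17100 without a filter, 15771 with DESeq2, and 16064 to 16177 without 1 library. Replicate numbers did not pair the libraries (correlations of deviations -0.006, 0.008 and -0.003), and with the replicate number as a block 15926 genes were called, with 29 members higher and 29 lower. EPHA8, with 6 counts in shCK5, had the largest standard error of the tested members (0.681), and rows under the count filter were not tested.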
